A study of Mus musculus with 4 samples.

Results

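Chemokines and cytokines are small secreted proteins by which cells of a tissue call in, place and feed leukocytes. The 35 genes described here encode 23 chemokines and 12 other cytokines or growth factors. They were chosen by symbol, as a set of such genes measured in heart cells, from the 31053 genes in the deposited count tables. For each gene the cell type with its highest level is given first. The levels in offspring of dams fed a high-fibre or a control diet follow.

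The data are 4 droplet single-cell RNA libraries from mouse hearts, in which each transcript molecule is counted once by its unique molecular identifier (UMI). The 2 high_fibre libraries come from offspring of dams fed a diet rich in resistant starch through pregnancy and lactation. The 2 control_diet libraries come from offspring of control-fed dams, whose diet the series text describes as low in resistant starch. All offspring went to 1 standard chow at 3 weeks of age and were killed at 6 weeks. The labels give no strain, sex or genotype, and the number of hearts behind each library is not stated. Nothing says that libraries are separate animals, so a p-value here measures only how much the libraries vary, and that variation may be technical. Hearts were digested with enzymes and the suspension was sorted for live, metabolically active, nucleated cells, so levels describe cells that survived this treatment.

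The smallest library, control_diet 2, held 27577599 UMIs and the largest, high_fibre 2, held 69600492. A set of 884 cell barcodes occurred in more than 1 library, and 450 in all 4. The lower copies held a median of 639 UMIs against 19136 for the highest copy, and only the highest copy was kept. This left 20409 cells, from 2528 in control_diet 2 to 6845 in high_fibre 2. Xist, made by female cells, stood at 279 and 588 CPM of all kept cells in high_fibre 1 and 2 and at 742 and 439 CPM in control_diet 1 and 2, and the Y-linked Ddx3y at 73.6, 40.5, 29.0 and 43.6 CPM. Every library thus held RNA of both sexes, in unequal amounts. Levels are CPM, the UMIs of a gene scaled to a common total of UMIs of the cells named. Libraries are listed below in the order high_fibre 1, high_fibre 2, control_diet 1, control_diet 2 wherever 4 values stand together.

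Cells were assigned by UMIs of marker genes: fibroblast by Col1a1 and Dcn, endothelial by Pecam1 and Cdh5, macrophage by C1qa, pericyte by Kcnj8 and Vtn, B cell by Cd79a and T cell by Cd3e. A cell that passed 2 or more of these gates entered none. The gates took 17859 cells (87.5% of those kept), namely 6456 endothelial, 6149 fibroblast, 3068 macrophage, 999 pericyte, 857 B and 330 T cells. The smallest number in a library was 32 T cells in control_diet 2. Each of 25 further markers, such as Pdgfra for fibroblasts and Mrc1 for macrophages, was highest in its own gate. Cardiomyocytes, whose markers reached only 20 cells outside the gates, were almost absent, and mesothelial markers reached 0 cells. The heart's own muscle cells are therefore not described.

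Chemokines act through receptors on leukocytes and form gradients on the matrix and the vessel wall. Inflammatory chemokines are made on demand after signals such as Toll-like receptor ligands, interleukin 1 or tumour necrosis factor, while homeostatic ones such as Cxcl12 are made all the time. In the heart, resident macrophages live among fibroblasts and capillaries, and depend on the growth factors Csf1 and Il34 that both signal through Csf1r. Many of these genes also arise from a few ancestral genes and lie side by side in the genome.

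Of the 35 genes, 19 were highest in macrophage-gated cells, 7 in fibroblast-gated cells, 5 in endothelial-gated cells, 2 in pericyte-gated cells, and 1 each in B and T cells. The highest gate was set apart from the next one for 32 genes, by edgeR's quasi-likelihood test with library as a block, adjusted p under 0.05 over all genes and the same order in all 4 libraries. Over all genes tested, 45.4% met this rule. The exceptions were Il15, whose macrophage level was above the endothelial one in only 2 of 4 libraries, and Il10 and Cxcl13, which were too sparse for the test. The heat map of levels by gate shows this division of labour.

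**Figure D1:**
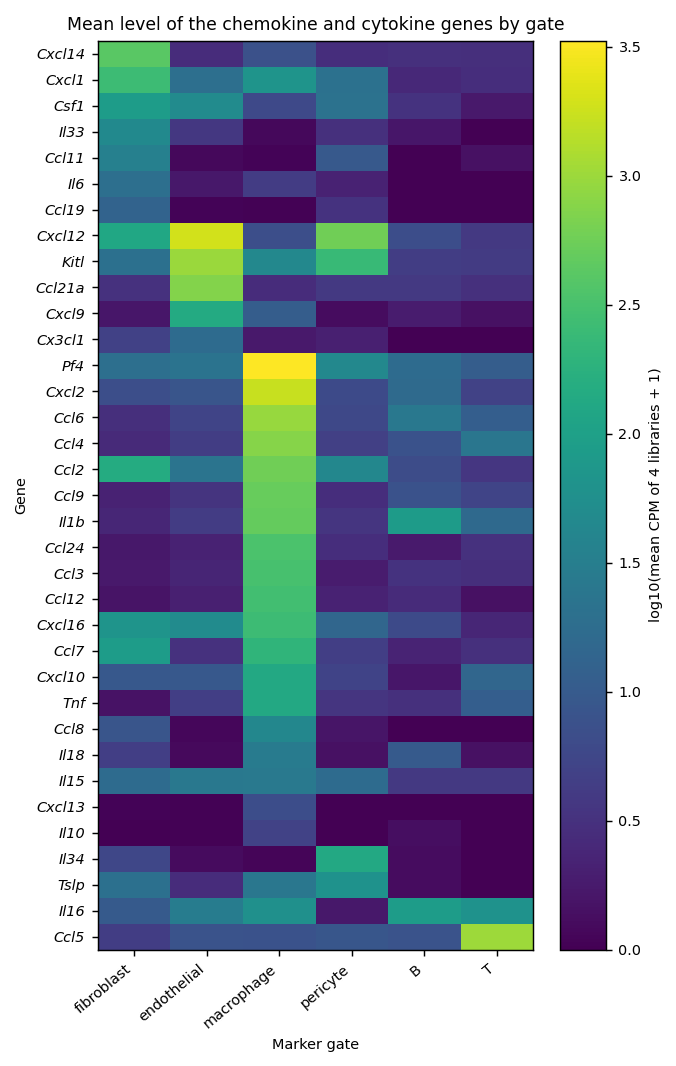
Mean level of each of the 35 genes (rows) in the 6 marker gates (columns), as log10 of the mean CPM of 4 libraries plus 1. Rows are grouped by the gate of highest level, and the largest block, 19 genes, is bright in the macrophage column.

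Members next to each other in the genome could differ in their leading gate, which is why their positions are given. On chromosome 11 (GRCm38, gene bodies from GENCODE M21), Ccl2 (82035571 to 82037453, plus strand), Ccl7, Ccl11 (82057823 to 82062955), Ccl12 and Ccl8 (82115185 to 82116799) follow each other among the 35 genes. Ccl2, Ccl7, Ccl12 and Ccl8 were highest in macrophages, whereas Ccl11 between them was a fibroblast gene. The next group on that chromosome runs from Ccl5 (83525778 to 83530518, minus strand) through Ccl9, Ccl6 and Ccl3 to Ccl4 (83662584 to 83664683, plus strand). Ccl5 was highest in T cells and the other members of that group in macrophages. On chromosome 5, Pf4 (90772435 to 90773383), Cxcl1 (90891241 to 90893115) and Cxcl2 (90903871 to 90905938), all on the plus strand, follow in this order, and the middle one was led by fibroblasts and the outer ones by macrophages. Cxcl9 (92321347 to 92328079) and Cxcl10 (92346638 to 92348889) are the next members, on the minus strand of the same chromosome. Cxcl9 was an endothelial gene and Cxcl10 a macrophage gene.

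Macrophages carried ligands of Ccr1, Ccr2 and Ccr3, which draw monocytes and eosinophils. Pf4 (platelet factor 4), a heparin-binding chemokine, stood at 3120, 3594, 3229 and 3429 CPM in macrophage-gated cells and at no more than 43.7 CPM as the mean of any other gate. Ccl6 stood at 993, 928, 855 and 1058 CPM and Ccl9 at 497, 489.5, 486 and 529 CPM. Ccl6 was higher still in 150 cells with neutrophil markers outside the gates, at a mean of 2728 CPM, and these held 2.93% of its UMIs. Both are mouse chemokines that bind Ccr1, and neither separated the diets in macrophages. Ccl24, an eosinophil attractant that binds Ccr3, stood at 282, 380.4, 343 and 353 CPM, and Ccl12, a Ccr2 ligand found in mice, at 236, 307, 253 and 331 CPM. Ccl8, a further chemokine led by macrophages, stood at 30.7, 57.1, 42.5 and 36.4 CPM, with 7.52 CPM in fibroblasts. Of the receptors, Ccr1 and Ccr2 were highest in the macrophage gate, at means of 67.5 and 59.4 CPM, while Ccr3 did not pass 0.241 CPM in any gate.

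Ccl3 and Ccl4, inflammatory CC chemokines, were shared with small leukocyte groups outside the gates. In macrophages Ccl3 stood at 294, 216, 420.3 and 323 CPM and Ccl4 at 811, 546, 1012 and 681 CPM. In 137 cells with natural killer (NK) markers and no gate, Ccl3 had a mean of 718 CPM and Ccl4 one of 1789 CPM. In 166 cells with monocyte markers the means were 690.3 and 973 CPM. Macrophages held 81.2% of all Ccl3 UMIs and 86.3% of all Ccl4 UMIs of kept cells.

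Ccl2 and Ccl7, the main monocyte attractants, had a second source in fibroblasts. Ccl2 stood at 494, 543, 625 and 663 CPM in macrophages and at 189, 132, 134 and 128 CPM in fibroblasts. Ccl7 stood at 164, 189.9, 142 and 299 CPM in macrophages and at 149, 51.6, 60.9 and 87.3 CPM in fibroblasts. Fibroblasts held 49.4% of the Ccl7 UMIs of kept cells, against 48.2% in macrophages. The fibroblast RNA came from few cells. The 5% of fibroblasts with most Ccl2 UMIs held 94.6% to 98.4% of the fibroblast Ccl2 UMIs in each library, and single cells held up to 402 to 624 of them. In macrophages the top 5% of cells held 36.9% to 44.7%. A Ccl2 UMI was found in 618 of 6149 fibroblasts (10.1%) and in 18 of 857 B cells (2.10%), at median depths of 12020 to 16250 and 3646 to 4798 UMIs per cell. After each cell was thinned to 2000 UMIs, the fibroblast share was 4.09% to 6.30% over libraries. Ccl2 was also high in lymphatic-like endothelial cells, at 360 CPM over the 162 cells of the cluster led by Mmrn1, Lyve1 and Fgl2.

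Among macrophages the genes divided between the 2 clusters found without using any of the 35 genes. The larger cluster (2056 cells, led by the antigen-presentation genes H2-Eb1, H2-Aa and H2-Ab1) held Il1b at 722 CPM over all libraries against 84.8 CPM in the other (1080 cells, led by Slpi, Prg4 and Fn1). Ccl3 stood at 365 and 165 CPM in these clusters, Ccl4 at 949 and 362 CPM, Cxcl10 at 174 and 62.7 CPM and Tnf at 168 and 79.1 CPM. The second cluster was higher for Ccl6 (1348 against 699 CPM), Ccl24 (552 against 217 CPM), Ccl8 (78.0 against 23.6 CPM) and Pf4 (4685 against 2585 CPM). These differences between clusters are descriptions without a test. Each cluster held cells of every library, from 190 to 689 and from 91 to 458.

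The interleukins and tumour necrosis factor of macrophages covered a wide range. Il1b, the secreted fever cytokine that needs cleavage to act, stood at 788, 222, 651 and 299 CPM in macrophages. Its highest level lay outside the gates, in 150 cells with neutrophil markers, at 10846, 11648, 12474 and 13033 CPM. These cells held 18.8% of the Il1b UMIs of kept cells. Tnf (tumour necrosis factor) stood at 175, 112, 148 and 98.9 CPM. Il18, a relative of Il1b, was even across libraries at 26.8, 29.1, 28.5 and 28.7 CPM. Il15, which sustains NK and memory T cells, stood at 22.1, 26.0, 25.4 and 28.5 CPM in macrophages. In endothelial cells Il15 stood at 19.3, 27.2, 25.7 and 26.9 CPM. It was higher still in the cells with neutrophil markers, at a mean of 79.9 CPM. Il10, which dampens inflammation, gave 145 UMIs in 61 macrophages, and Cxcl13, the B-cell attractant, 227 UMIs in 12 macrophages of the repeat 1 libraries. Cxcl13 had 0 UMIs in macrophages of both repeat 2 libraries, where 3 UMIs would be 0.221 and 0.749 CPM in high_fibre 2 and control_diet 2.

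Chemokines with the CXC motif were made by several cell types. Cxcl2, a neutrophil attractant that binds Cxcr2, stood at 2716, 1011, 1909 and 1209 CPM in macrophages. Cxcl1, which binds the same receptor, was led by fibroblasts at 380.5, 188, 257 and 213 CPM, with 91.0, 47.7, 83.6 and 39.4 CPM in macrophages. Cxcl16, the ligand of Cxcr6 and a scavenger receptor, was broad, at means of 256 CPM in macrophages, 65.6 CPM in fibroblasts and 49.4 CPM in endothelial cells. Cxcl10 and Cxcl9 both bind Cxcr3 on T and NK cells and are induced by interferon. Cxcl10 was led by macrophages, at 187, 82.9, 177 and 90.1 CPM, and Cxcl9 by endothelial cells, at 131, 159, 129 and 157 CPM. Cxcr3 and Cxcr6 were highest in T cells, at 24.2 and 48.4 CPM.

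Among the gates, fibroblasts led Cxcl14, Ccl11, Ccl19, Il33, Il6 and Csf1 as well as Cxcl1. Cxcl14, a broadly made tissue chemokine, stood at 512, 474, 245 and 433 CPM, and fibroblasts held 98.7% of its UMIs. Ccl11 (eotaxin) stood at 41.8, 27.6, 20.9 and 41.7 CPM. Ccl19, a homeostatic ligand of Ccr7, stood at 18.3, 11.8, 8.26 and 11.1 CPM, and Ccr7 was high in B cells (mean 506 CPM) and T cells (301 CPM). Ackr4, a scavenger that removes ligands of Ccr7, was also a fibroblast gene, at 50.4 CPM. Il33, an alarmin kept in the nucleus, stood at 55.6, 42.7, 45.6 and 43.2 CPM, and its receptor Il1rl1 was highest in macrophages at 29.1 CPM. A single fibroblast of high_fibre 1 held 230 of that library's 1143 fibroblast Il33 UMIs.

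Fibroblast clusters differed in these genes. The cluster led by Ifi205, Hsd11b1 and the Y-linked Ddx3y (2346 cells) held Cxcl14 at 653 CPM, Ccl11 at 55.0 CPM and Ccl7 at 138 CPM. The cluster led by Xist, Igfbp3 and Gucy1a1 (2249 cells) held them at 465, 21.6 and 33.6 CPM. The cluster led by Sema3c, Postn and Tmem100 (1197 cells) held Cxcl14 at 42.5 CPM and Ccl11 at 12.6 CPM, but Ccl2 at 176 CPM. Ccl19 stood at 101 CPM in the small cluster led by Wif1 and Prg4 (202 cells, 109 of them from high_fibre 1) and at 1.25 to 14.4 CPM in the clusters named before. Ccl2 stood at 538 CPM in a cluster led by globin transcripts (296 cells, of which 57.8% were fibroblast-gated), which is given no cell type name. These are sums over all libraries, without a test.

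Endothelial cells carried the factors that keep stem cells and leukocytes in place. Cxcl12, the homeostatic ligand of Cxcr4, stood at 2259, 1868, 1792 and 1756 CPM in endothelial cells, at a mean of 575 CPM in pericytes and at 124 CPM in fibroblasts. Cxcr4 was highest in B cells (386 CPM), and the scavenger Ackr3 was highest in fibroblasts (422 CPM). Within the endothelium Cxcl12 stood at 3923 CPM in the cluster led by Hbb-bs and the arterial genes Hey1 and Sema3g, against 1290 CPM in the cluster led by Fmo2 and Vwf and 822 CPM in the one led by Apln. Cxcl9 had the reverse order, at 41.1, 189 and 235 CPM. Kitl (stem cell factor) stood at 976, 968, 1000 and 1041 CPM, and its receptor Kit at 30.6 CPM in the same gate. Cx3cl1 (fractalkine), a membrane-bound chemokine, stood at 15.5, 17.4, 16.4 and 14.96 CPM, and its receptor Cx3cr1 had a mean of 308 CPM in macrophages.

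Ccl21a, the chemokine by which lymphatic vessels take in Ccr7-bearing cells, lay mostly in lymphatic-like cells of the endothelial gate. The 130 endothelial cells with 3 or more UMIs of Prox1 and Mmrn1 held 87.9% of its UMIs, at 21618, 24145, 26743 and 33837 CPM. The level of the whole endothelial gate, 707, 1030, 827 and 426 CPM, therefore rests on few cells, namely 31, 57, 30 and 12 of them. The mouse genome holds near-identical copies of Ccl21a, and the tables list a second identifier for Ccl21a and for Ccl19 with 0 UMIs, so the split between copies is uncertain.

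Pericytes, the contractile cells around capillaries, were the main source of Il34 and Tslp. Il34, the second ligand of Csf1r, stood at 143, 126, 133 and 138 CPM in pericytes and at a mean of 4.56 CPM in fibroblasts, the next gate. Csf1, the first ligand, was made by fibroblasts at 89.8, 91.5, 79.3 and 85.1 CPM and by endothelial cells at 46.9, 55.8, 43.5 and 50.2 CPM. Cells with neutrophil markers outside the gates held Csf1 at a higher mean of 238 CPM. The receptor Csf1r was a macrophage gene at 899.9, 1017, 1018 and 1067 CPM. Tslp, an epithelial cytokine in other organs, stood at 64.0, 55.0, 64.2 and 60.2 CPM in pericytes, with 23.7 CPM in macrophages and 18.9 CPM in fibroblasts. Of its receptor chains, Crlf2 was highest in macrophages (139.5 CPM) and Il7r in T cells (597 CPM).

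Among the gates, lymphocytes led only Ccl5 and Il16. Ccl5, released by cytotoxic lymphocytes, stood at 825, 1566, 981 and 692 CPM in T cells, but the 137 NK cells held 15264, 14784, 14474 and 18600 CPM and 64.2% of all its UMIs. Il16, made as a precursor that is cut by caspase 3, stood at 78.9, 104, 77.3 and 86.1 CPM in B cells, 61.9, 64.5, 45.8 and 71.7 CPM in T cells and 45.1, 63.6, 61.9 and 60.9 CPM in macrophages. Cells with neutrophil markers outside the gates held more Il16, at a mean of 170 CPM. The Il16 lead of B cells among the gates is small, with a log2 difference from T cells of 0.49 (SE 0.16, adjusted p = 0.0254, edgeR with library as a block). It was lost, at an adjusted p above 0.05 or a changed order, when any of 3 libraries (high_fibre 1, control_diet 1 or high_fibre 2) was left out.

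The plot of levels by library gives the 4 values of each gene in its leading gate.

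**Figure D2:**
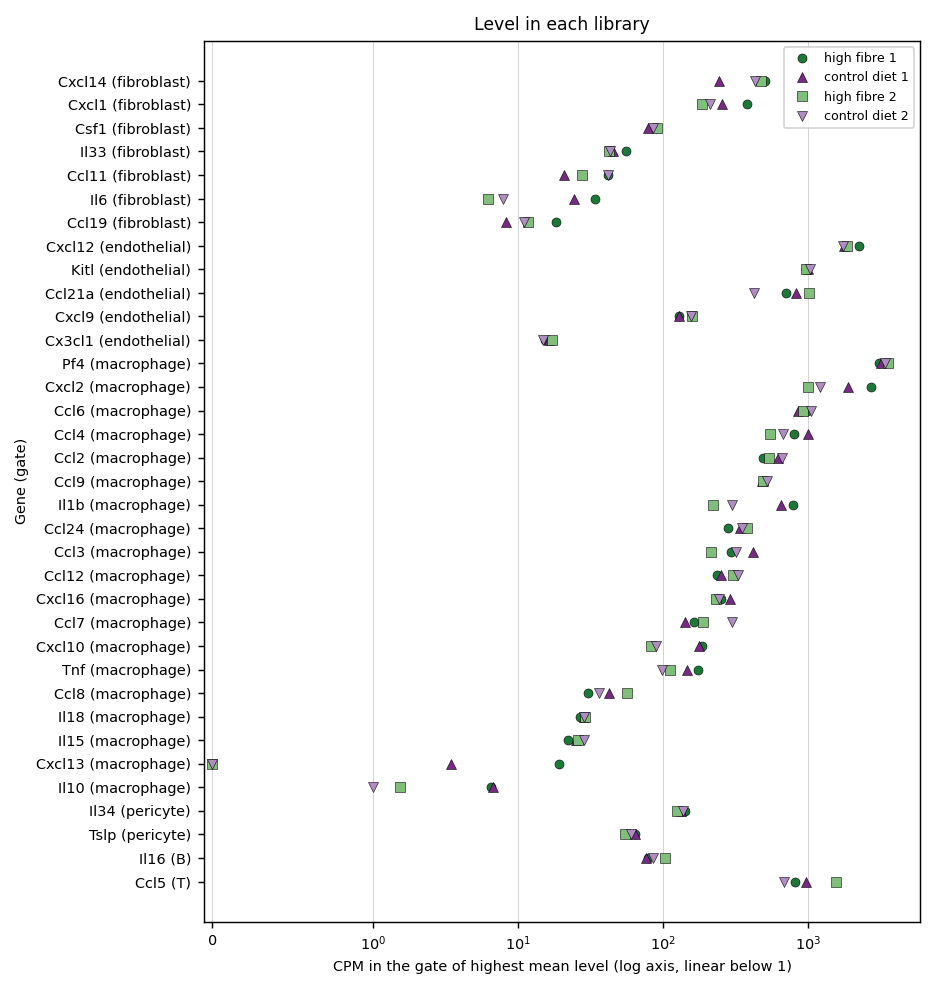
CPM of each gene in the gate of its highest mean level, given in parentheses, with 1 point per library on a log axis that is linear below 1. Most rows are narrow, such as Il18 and Il34, while Il6, Il1b, Cxcl2, Cxcl10 and Il10 spread into a repeat 1 and a repeat 2 pair.

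For a few genes the pattern over 6 gates and 4 libraries (24 points) was matched with all genes of at least 20 CPM in the same gate, by Pearson's r of log2 CPM. The points share libraries and gates, so r is a description. Il34 was closest to Rasl12, Agtr1a and Adcy5 (r = 0.994, 0.994 and 0.993). Pf4 was closest to Cd14, Npl and C1qc (0.984, 0.975 and 0.968), and Cxcl12 to Myo1d, Phldb2 and Gna11 (0.982, 0.981 and 0.976). Ccl5 was closest to the T and NK genes Trbc2, Cd3g and Nkg7 (0.964, 0.963 and 0.961). Cxcl10 had no near match, with r = 0.880 for Ccdc152 at the top.

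The question put by the design is whether the dam's diet changed these genes in the offspring's heart cells. No gene of the 35 was called at an adjusted p under 0.05 by edgeR's quasi-likelihood test in any of the 6 gates. The counts were 0 of 32 tested in fibroblasts (0.0297% of all genes were called there), 0 of 26 in endothelial cells (0.0665%), 0 of 30 in macrophages (0.0%), 0 of 11 in pericytes (0.0539%), 0 of 6 in B cells (0.0853%) and 0 of 3 in T cells (0.149%). At an unadjusted p under 0.05 there were 5, 9, 1, 1, 2 and 0 genes in the same order. Over all genes the numbers were 848 of 13475, 625 of 12030, 447 of 11432, 473 of 9269, 246 of 7037 and 235 of 5369. DESeq2 called 0 in each of these gates as well. In all kept cells together edgeR called 0 of 35 (0.0% of all genes). At an unadjusted p under 0.05 there were 10, beside 1213 of 15599 over all genes. DESeq2 called 4 of 33 there, with 0.838% of all genes. Those 4 were Pf4 (log2 0.56, adjusted p = 0.0118), Ccl9 (0.52, 0.0205), Ccl6 (0.55, 0.0455) and Cxcl14 (0.68, 0.0189). Leaving out 1 library, with the lone sample of its diet taken to vary like the other diet's pair, changed some of these calls. The share of all genes called rose in these fits too and is given beside each. Without high_fibre 2, 6 genes were called in fibroblasts (Ccl2, Ccl19, Ccl21a, Cxcl1, Cxcl2 and Kitl, all higher in high_fibre 1, with 2.08% of all genes), without high_fibre 1 Ccl6 (0.244%) and without control_diet 2 Cxcl14 (0.0503%). In endothelial cells 5 genes were called without control_diet 1 (1.58%) and 6 without control_diet 2 (0.896%), of which Ccl5, Ccl6 and Cxcl10 were in both, Ccl5 with log2 1.72 and then −1.05. In pericytes Ccl2 was called without high_fibre 1 (0.26%) and Cxcl1 without high_fibre 2 (0.356%). In B cells Il1b was called without control_diet 1 (0.553%) or high_fibre 2 (0.535%), and in T cells Cxcl10 without high_fibre 2 (0.363%). In all kept cells Cxcl9 and Kitl were called without control_diet 1 (2.2%), both lower in the high_fibre libraries. In macrophages 0 were called whichever library was left out.

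The macrophage gate made up 16.5% and 16.4% of kept cells in high_fibre 1 and 2, and 13.8% and 10.6% in control_diet 1 and 2. The endothelial gate, which led Cxcl9 and Kitl, made up 26.1% and 31.1% in high_fibre 1 and 2, and 30.9% and 46.8% in control_diet 1 and 2. In a sum over all kept cells, more cells of a type and more RNA per cell cannot be told apart.

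In their leading gate, 7 of the 35 genes had library values that did not overlap between the diets, and none of the 7 passed the test. They were 3 of 7 fibroblast-led genes (35.1% of all genes tested in fibroblasts did not overlap, in either direction), 2 of 5 endothelial-led genes (32.6%) and 2 of 19 macrophage-led genes (29.2%). In macrophages Ccl2 was lower in the high_fibre libraries, at 494 and 543 CPM against 625 and 663 CPM. This is a log2 difference of −0.30 (SE 0.10, adjusted p = 1.00, edgeR). Ccl3 was at 294 and 216 CPM against 420.3 and 323 CPM, a log2 difference of −0.53 (SE 0.25, adjusted p = 1.00, edgeR). Ccl2 and Ccl3 were thus low in both high_fibre libraries, but high_fibre 1 and control_diet 2 differed in Ccl3 by only 294 against 323 CPM. The Ccl3 difference was −0.27 without high_fibre 2, −0.28 without control_diet 1 and −0.83 without high_fibre 1.

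In fibroblasts 3 genes stood higher in both high_fibre libraries. Ccl19 was at 18.3 and 11.8 CPM against 8.26 and 11.1 CPM (log2 0.68, SE 0.27, adjusted p = 0.798, edgeR). Its lead came from high_fibre 1, since high_fibre 2 and control_diet 2 were almost equal: the difference was 0.32 without high_fibre 1 and 0.44 without control_diet 1. Cxcl14 was at 512 and 474 CPM against 245 and 433 CPM (log2 0.56, SE 0.34, adjusted p = 0.952, edgeR), and here control_diet 1 was the low library. The difference was 0.20 without control_diet 1 and 1.02 without control_diet 2. That library also held the most cells of the Sema3c and Postn cluster, in which Cxcl14 was low. It held 493 such cells against 226, 365 and 113 in high_fibre 1, high_fibre 2 and control_diet 2. Of the Ifi205 and Ddx3y cluster, the fibroblast cluster highest in Cxcl14, it held 476 cells against 926, 729 and 215 in the same order. Of the Xist and Igfbp3 cluster it held 777 against 372, 862 and 238. These numbers are not shares, since the 4 libraries held 1678, 2075, 1812 and 584 fibroblast-gated cells. Of the 4 libraries, control_diet 1 also had the most Xist and the least Ddx3y RNA in all kept cells. The part of cluster numbers or of sex in the difference was not tested. Csf1 was at 89.8 and 91.5 CPM against 79.3 and 85.1 CPM (log2 0.16, SE 0.08, adjusted p = 0.893, edgeR).

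In endothelial cells Cxcl12 was at 2259 and 1868 CPM against 1792 and 1756 CPM (log2 0.22, SE 0.11, adjusted p = 0.963, edgeR). The difference was 0.04 without high_fibre 1 and 0.38 without high_fibre 2. Kitl was at 976 and 968 CPM against 1000 and 1041 CPM (log2 −0.07, SE 0.09, adjusted p = 0.995, edgeR), a gap smaller than its standard error, and −0.11 without high_fibre 1 and −0.03 without high_fibre 2. The other genes overlapped between diets in their leading gate, among them Il34, Tslp, Il16, Ccl5, Cxcl9, Pf4, Ccl6 and Ccl9. On counts simulated with the same spread between libraries for every gene, 62% of 2-fold and 99% of 4-fold changes were called in fibroblasts. In macrophages it was 63% and 94%. At this depth and number of libraries a smaller change could be missed. Real genes differ in spread, and for variable ones such as Il1b in macrophages a change of 2-fold or more could be missed too.

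**Figure D3:**
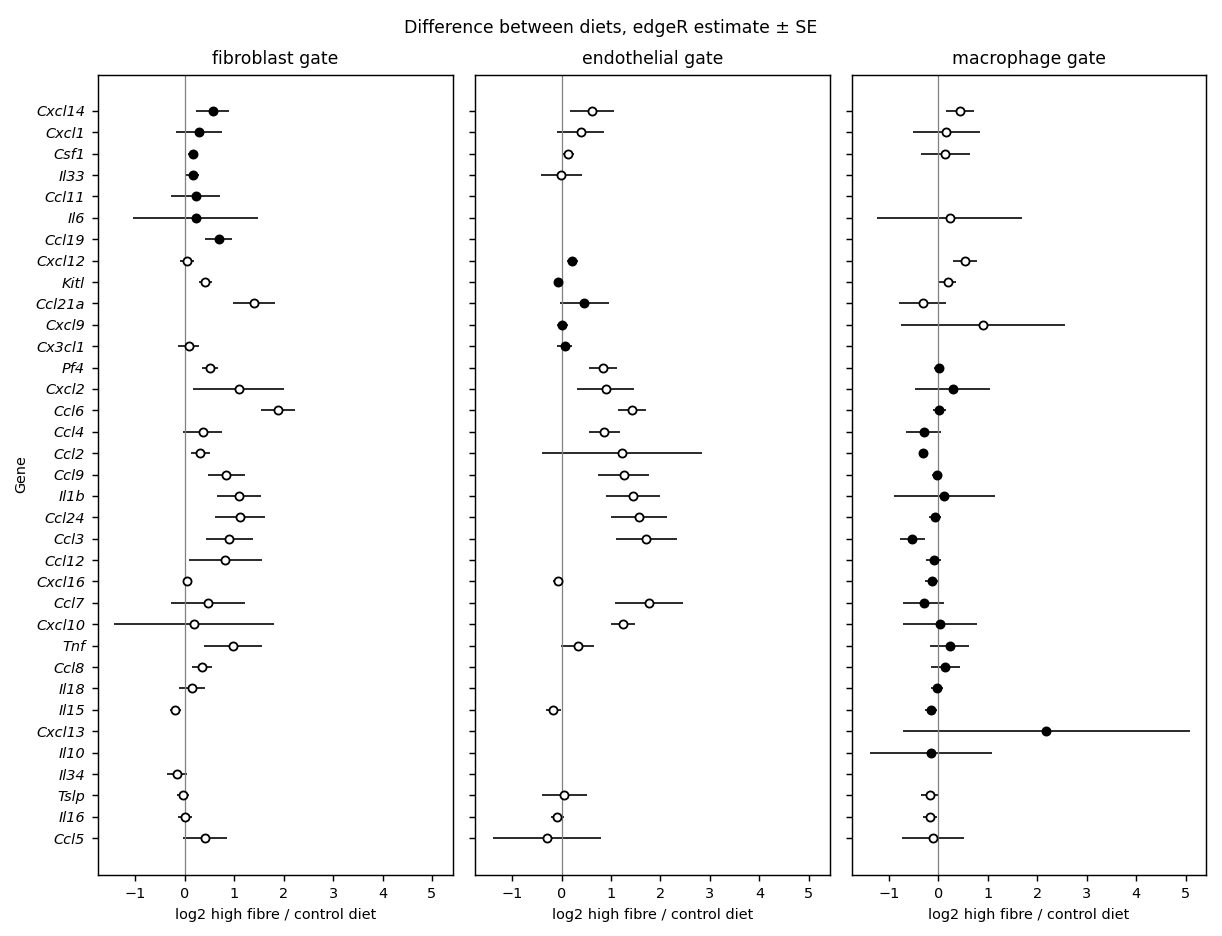
Estimated log2 ratio of high fibre to control diet with its SE (horizontal bars) for every tested gene in 3 gates, filled where the gate is the one of highest level. Open points in the fibroblast and endothelial gates lie mostly right of 0, whereas the macrophage points lie on both sides of 0, and none was called.

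Outside macrophages, several macrophage-led genes had higher low-level values in both high_fibre libraries, namely 7 of 17 tested in fibroblasts (15.9% of all genes) and 8 of 14 in endothelial cells (17.4%), with 1 (19.2%) and 0 (15.2%) lower. The counts that follow cover every tested member, those in their own leading gate included. In fibroblasts both high_fibre libraries lay above both control_diet libraries for 12 of the 32 tested genes (15.9% of all genes) and below for 1 (19.2%). In endothelial cells the numbers were 10 and 1 of 26 (17.4% and 15.2%), and in macrophages 2 and 2 of 30 (14.3% and 14.9%). In pericytes they were 4 and 0 of 11 (14.9% and 18.9%), in B cells 2 and 1 of 6 (13.1% and 18.1%), and in T cells 0 and 0 of 3 (17.1% and 14.3%). The median log2 difference of the tested members was 0.36 in fibroblasts and 0.43 in endothelial cells, with 29 of 32 and 20 of 26 above 0, and −0.00 in macrophages with 15 of 30 above 0. The median of all genes was within 0.01 of 0 in these 3 gates. Without high_fibre 1, 21 of 33 members were above 0 in fibroblasts, with a median of 0.19.

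Ccl6, singled out after its values were seen, shows the pattern. In fibroblasts it stood at 2.53 and 3.80 CPM in high_fibre 1 and 2 and at 0.814 and 0.944 CPM in control_diet 1 and 2. In endothelial cells the values were 5.72 and 6.55 against 2.38 and 2.17 CPM. In macrophages, its leading gate, the diets overlapped. Pf4 behaved alike, at 18.4 and 24.9 against 16.8 and 13.6 CPM in fibroblasts and 21.0 and 33.4 against 12.1 and 18.7 CPM in endothelial cells. Ccl24, Ccl9, Ccl3 and Il1b followed the same order in both gates.

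The macrophage marker C1qa moved with them. It stood at 10.2 and 14.4 CPM in fibroblasts of high_fibre 1 and 2 and at 6.63 and 5.67 CPM in control_diet 1 and 2. In endothelial cells it stood at 18.0 and 28.7 against 8.29 and 7.48 CPM. The summed level of 5 other macrophage markers (C1qb, C1qc, Csf1r, Fcgr1 and Mrc1) was 18.2, 32.7, 13.4 and 14.6 CPM in fibroblasts and 41.7, 68.4, 24.8 and 24.5 CPM in endothelial cells, against a mean of 12377 CPM in macrophages. The sum of the 8 genes Ccl3, Ccl4, Ccl6, Ccl9, Ccl12, Ccl24, Cxcl2 and Pf4, all led by macrophages, was 39.0, 38.9, 25.2 and 21.8 CPM in fibroblasts and 50.7, 61.1, 26.4 and 30.6 CPM in endothelial cells. Per C1qa UMI the 8 genes gave 3.82, 2.69, 3.80 and 3.85 UMIs in fibroblasts, 2.81, 2.13, 3.18 and 4.10 in endothelial cells and 1.46, 1.15, 1.29 and 1.22 in macrophages. Cells with 4 or more C1qa UMIs leave the fibroblast and endothelial gates, which lowers C1qa there. Markers of some other cells were also higher in both high_fibre libraries in these gates, while those of others overlapped between diets. The 4 neutrophil markers summed to 4.91, 3.57, 1.30 and 3.25 CPM in fibroblasts and 8.77, 8.18, 1.24 and 5.55 CPM in endothelial cells. The 4 B-cell markers summed to 4.03, 5.84, 2.89 and 1.47 CPM in fibroblasts and 11.2, 10.5, 4.19 and 2.89 CPM in endothelial cells. The 5 T-cell markers summed to 1.02, 1.31, 0.854 and 0.420 CPM in fibroblasts and 2.03, 2.18, 1.43 and 0.603 CPM in endothelial cells. The 2 erythroid genes stood at 28.1, 19.2, 6.10 and 12.1 CPM in fibroblasts and overlapped between diets in endothelial cells. Smooth muscle and cardiomyocyte markers overlapped in both gates. In fibroblasts they summed to 75.0, 61.9, 69.7 and 40.8 CPM and to 11.5, 9.45, 10.4 and 8.08 CPM. In endothelial cells they summed to 50.6, 23.5, 75.8 and 16.6 CPM and to 60.6, 65.9, 81.9 and 64.8 CPM. The part of RNA from macrophages or from these other cells in the differences was not tested.

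**Figure D4:**
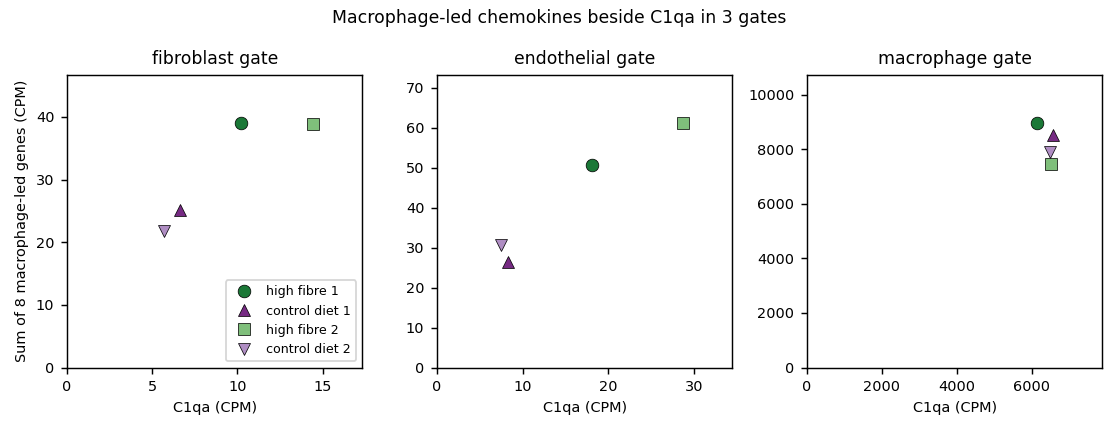
Sum of 8 macrophage-led chemokine genes (vertical, CPM) against C1qa (horizontal, CPM) in the fibroblast, endothelial and macrophage gates, 1 point per library. In the first 2 gates both high fibre libraries lie above and to the right of both control diet libraries, and in the macrophage gate the 4 libraries lie close together.

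Several inflammatory genes were split by the repeat number in the sample names and not by diet. In macrophages both repeat 1 libraries lay above both repeat 2 libraries for 10 of 30 tested genes (11.6% of all genes), namely Ccl4, Cxcl1, Cxcl2, Cxcl10, Cxcl13, Cxcl16, Il1b, Il6, Il10 and Tnf. They lay below for 7 (32.8%), namely Ccl7, Ccl12, Ccl24, Pf4, Il15, Il18 and Tslp. In fibroblasts 7 of 32 lay above (15.7%), namely Ccl2, Ccl5, Cxcl1, Cxcl2, Cxcl10, Il6 and Il33, and 4 below (20.5%). In endothelial cells 2 of 26 lay above (12.6%) and 7 below (26.2%), and in pericytes 1 of 11 (16.2%) and 2 (19.3%). In B cells 0 of 6 lay above (17.7%) and 2 below (20.1%), and in T cells 0 of 3 (21.7%) and 1 (15.8%). The labels do not say what a repeat number shares, so no test was made.

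Il6, made early in inflammation, was at 34.4 and 24.4 CPM in fibroblasts of high_fibre 1 and control_diet 1 and at 6.23 and 7.98 CPM in those of high_fibre 2 and control_diet 2. Cxcl1 was at 380.5 and 257 against 188 and 213 CPM there. In macrophages Cxcl2 was at 2716 and 1909 against 1011 and 1209 CPM, Il1b at 788 and 651 against 222 and 299 CPM and Cxcl10 at 187 and 177 against 82.9 and 90.1 CPM. Tnf was at 175 and 148 against 112 and 98.9 CPM and Il10 at 6.50 and 6.76 against 1.55 and 0.999 CPM. For Il6, Il1b, Cxcl10, Tnf and Il10 the gap between repeat numbers within each diet was larger than the gap between diets within either repeat number. For Cxcl1 and Cxcl2 it was not, since high_fibre 1 stood far above control_diet 1 as well. Of the 9 regulators of these pathways that were followed, 4 lay higher in macrophages of both repeat 1 libraries (11.6% of all genes) and 1, Casp1, lay lower (32.8%). Nfkbia, the inhibitor that NF-kappaB itself induces, stood at 1386 and 1133 against 556 and 546 CPM and was singled out after its values were seen.

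**Figure D5:**
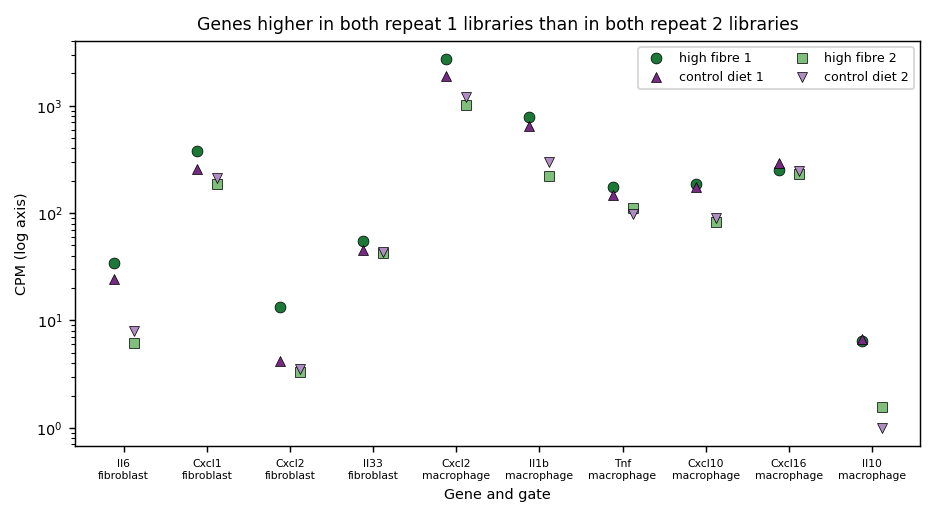
CPM on a log axis of 10 gene and gate pairs, with repeat 1 libraries at the left and repeat 2 libraries at the right of each position. In each of these pairs, chosen for this split, both repeat 1 points lie above both repeat 2 points.

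RNA of genes that tissue digestion can induce differed in the same direction in macrophages. The summed level of 10 such genes (Fos, Fosb, Jun, Junb, Egr1, Atf3, Ier2, Hspa1a, Hspa1b and Dnajb1) was 23737 and 18937 CPM in macrophages of high_fibre 1 and control_diet 1 and 15099 and 14046 CPM in those of high_fibre 2 and control_diet 2. In fibroblasts it was 11241 and 8493 CPM and 8761 and 8653 CPM, where control_diet 1 was the lowest. Both high_fibre libraries thus lay above both control_diet libraries in fibroblasts. In endothelial cells it was 6412 and 5195 CPM and 4638 and 3783 CPM. In pericytes both high_fibre libraries were also above both control_diet libraries, at 4190 and 3277 against 2568 and 2539 CPM. The same held in B cells (6631 and 4043 against 3306 and 3380 CPM) and T cells (5376 and 3643 against 3281 and 2810 CPM). In macrophages and endothelial cells the diets overlapped. The part of digestion or handling in the repeat-number pattern or in the diet differences was not tested.

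The sequences upstream of 4 genes of the repeat-number pattern are shown, and each of the 4 holds a motif match. RefSeq promoters (GRCm38.p6, 250 bases before to 50 after the start) were found for 24 of the 35 genes. They were searched on both strands for an NF-kappaB motif, GGGA and TTTCC parted by any 1 base, and for an interferon element, GAAA and GAAA parted by any 2 bases. Each was counted by itself. The first occurred in 5 of the 27 promoters of these genes (Csf1, Cxcl1, Cxcl2, Il6 and Il16), against 0.411% of all promoters. The second occurred in 3 of 27 (Ccl19, Cxcl10 and Cxcl14), against 3.44%. Il1b and Tnf, which also split by repeat number in macrophages, were searched and held neither. The motif TATAAA, searched as well, occurred in 12 of 27, against 13.6%. The 250 bases before the start are printed 5′ to 3′ on the gene's strand, in lower case with the matching letters in capitals. A match describes letters and not a bound site.
Cxcl1, chr5:90890995-90891244, plus strand: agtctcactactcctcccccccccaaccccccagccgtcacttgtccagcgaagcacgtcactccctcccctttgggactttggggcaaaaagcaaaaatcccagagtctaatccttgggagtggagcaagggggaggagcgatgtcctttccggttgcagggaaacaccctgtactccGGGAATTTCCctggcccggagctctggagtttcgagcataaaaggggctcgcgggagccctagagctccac
Cxcl2, chr5:90903649-90903898, plus strand: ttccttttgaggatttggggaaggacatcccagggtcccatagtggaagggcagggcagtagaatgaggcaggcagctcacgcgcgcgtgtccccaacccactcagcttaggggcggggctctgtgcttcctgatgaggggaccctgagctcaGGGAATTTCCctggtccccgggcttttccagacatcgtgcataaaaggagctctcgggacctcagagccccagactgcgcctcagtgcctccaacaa
Il6, chr5:30012864-30013113, plus strand: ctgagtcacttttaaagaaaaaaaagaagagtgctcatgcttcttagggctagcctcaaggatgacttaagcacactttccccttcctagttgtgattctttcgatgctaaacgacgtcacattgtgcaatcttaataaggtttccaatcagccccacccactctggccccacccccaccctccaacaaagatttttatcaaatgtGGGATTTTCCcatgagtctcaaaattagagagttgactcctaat
Cxcl10, chr5:92348890-92349139, minus strand: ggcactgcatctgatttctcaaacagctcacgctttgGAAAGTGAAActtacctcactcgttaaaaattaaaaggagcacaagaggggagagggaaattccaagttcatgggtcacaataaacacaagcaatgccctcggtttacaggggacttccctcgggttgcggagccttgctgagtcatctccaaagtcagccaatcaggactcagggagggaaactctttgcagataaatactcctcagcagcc

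The NF-kappaB match begins 71 bases before the start in Cxcl1, 97 in Cxcl2 and 44 in Il6, and the matches of Cxcl1 and Cxcl2 have the same letters. The interferon element match of Cxcl10 begins 213 bases before the start. Csf1 and Il16 hold the NF-kappaB letters too. Csf1 stood at 89.8 and 79.3 CPM in fibroblasts of the repeat 1 libraries and 91.5 and 85.1 CPM in those of repeat 2, which overlap. Il16 split the other way in B cells, at 78.9 and 77.3 against 104 and 86.1 CPM.

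Neither the receptors nor the regulators gave a call. Of 32 receptors, 18 were tested in fibroblasts, 15 in endothelial cells, 21 in macrophages, 8 in pericytes, 11 in B cells and 13 in T cells, and 0 were called higher or lower by edgeR in any of them, with 3, 4, 2, 0, 1 and 3 at an unadjusted p under 0.05. Of the 9 regulators, 4 to 9 were tested in a gate and 0 were called, with 0, 2, 0, 2, 0 and 0 at an unadjusted p under 0.05. Over all genes 848 of 13475, 625 of 12030, 447 of 11432, 473 of 9269, 246 of 7037 and 235 of 5369 were under it. Cx3cr1 in macrophages was at 233 and 291 CPM in high_fibre 1 and 2 and 349 and 359 CPM in control_diet 1 and 2, lower in both high_fibre libraries without passing the test.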

How the data were processed

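Single-cell RNA was measured in 4 heart libraries, 2 per diet. The authors deposited UMI counts per gene and cell barcode, made with Cell Ranger 3.1.0 and the mm10 build per the submitters' processing notes, from droplet libraries described as 3′ chemistry per the labels. UMIs remove copies made by amplification, so levels rest on molecules. Counts were read as deposited. Barcodes under 500 UMIs or 250 genes, or over 20% mitochondrial UMIs, were dropped, simulated-doublet neighbours (2.36% to 7.23% per library) were removed, and a barcode present in several libraries was kept where it had most UMIs. Gates needed at least 8 fibroblast, 3 endothelial, 4 macrophage, 4 pericyte, 3 B or 2 T marker UMIs. Small cell groups outside the gates needed 4 UMIs of their markers. Clusters (Leiden, 2000 variable genes, 30 components) were made without the 35 genes.

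Counts were summed per library and gate. Diets were compared with edgeR 4.0.16 in R 4.3.3 (quasi-likelihood, TMM, filterByExpr with a minimum count of 10), with Benjamini-Hochberg adjustment over all genes and a threshold of 0.05. Gates were compared with library as a block. Diet effects were compared between gates with limma 3.58.1. DESeq2 1.42.0 was an alternative. The fit was tested on simulated data with known changes. The 35 genes, the receptor and regulator lists and the markers were chosen with earlier results of these data known. Statistics for single genes are given where the 2 diets' values did not overlap in the leading gate. Samples were grouped by the diet in their labels. Alternatives covered doublets, gate cuts, clusters, the mitochondrial limit, filtering, scaling, the test and each library left out. The precision is set by 4 libraries and by 32 to 2132 cells per gate and library. Limits from a count of 0 use 3 UMIs and cover counting error only.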

Additional observations from a re-analysis of the deposited data

Results flagged for a closer look

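For 4 of the 31 genes tested in 2 or more gates, the libraries of both diets separated in opposite directions in 2 gates. Of all 12458 genes so tested, 22% did. Ccl3 had higher values in both high_fibre libraries in fibroblasts (log2 0.90) and endothelial cells (log2 1.72) and lower ones in macrophages (log2 −0.53), gaps of 1.43 and 2.24. The tested differences, by limma over all genes, were 1.32 (SE 0.40, adjusted p = 0.89) and 2.08 (SE 0.73, adjusted p = 0.919). The mean level of Ccl3 was 313 CPM in macrophages, at most 2.28 CPM in any other gate and 0.722 CPM in fibroblasts. C1qa was also higher in both high_fibre libraries in fibroblasts and endothelial cells. The part of macrophage RNA in these low values was not tested. Kitl was higher in fibroblasts (0.42) and pericytes (0.16) and lower in endothelial cells (−0.07), gaps of 0.485 and 0.23. The first was tested, at 0.48 (SE 0.23, adjusted p = 0.819), and the second was not tested.

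Ccl2 was higher in pericytes (1.13) and lower in macrophages (−0.30), a gap of 1.43 that was not tested. Il1b was higher in fibroblasts (1.10) and endothelial cells (1.44) and lower in the B gate (−1.55), gaps of 2.65 and 3.0 that were not tested. The mean level of Il1b was 1.37 CPM in fibroblasts, its lowest gate, and 84.5 CPM in the B gate. The B-gate values rest on 20 of 857 cells. The 4 neutrophil markers summed to 391, 251, 513 and 1950 CPM there, and their part in the difference was not tested.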

How the results depend on the processing

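The 0 members called for diet moved in several settings. Without the low-count filter 5 of 34 were called in fibroblasts (1.38% of all genes), 5 of 35 in endothelial cells (0.785%) and 1 of 35 in macrophages (0.329%). In pericytes 2 of 33 were called (0.158%) and in B cells 1 of 29 (0.156%). In T cells it was 1 of 26 (0.217%) and in all kept cells 1 of 35 (0.35%). These fits called 269, 140, 57, 24, 22, 29 and 77 genes in all, in this order. With DESeq2, 4 of 33 were called in all kept cells (0.838% of all genes). With classes from clusters, 1 of 10 was called in pericytes (Ccl2, with 0.469% of all genes). Leaving out 1 library gave 0 to 6 in fibroblasts and endothelial cells, 0 to 0 in macrophages, 0 to 1 in pericytes, B and T cells, and 0 to 2 in all kept cells. The causes were not tested, beyond fewer or more genes and samples in those fits.

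Same-numbered samples were not taken as pairs, since there are only 2 pairs and the labels do not tie them. With the repeat number as a replicate block, 2 members were called in macrophages (Cxcl13, log2 2.54, and Ccl3, log2 −0.53), 1 in pericytes (Ccl2, 1.04) and 1 in B cells (Il1b, −1.57), and 0 in fibroblasts, endothelial, T and all kept cells. Same-number correlations ran from 0.01 to 0.20. Over all genes this block gave 51 calls in macrophages (0.446%), 21 in pericytes (0.227%) and 33 in B cells (0.469%). It gave 21 in T cells (0.391%), 8 in endothelial cells (0.0665%) and 0 in fibroblasts. The members tested numbered 30 in macrophages, 11 in pericytes and 6 in B cells.

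For the 7 genes given with statistics, 91 alternatives kept the direction, 86 also the side of the threshold, and 5 passed it. The leading gate was set apart for 30 to 32 genes, with Ccl3, Ccl4 and Il6 lost when classes came from clusters, where the leading class itself changed for Ccl3 and Il6. Keeping the barcode copies, an alternative chosen after seeing the data, left 32. Depth limits Il10, Cxcl13, Ccl19 and all genes outside their leading gate.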
